A study of Rattus norvegicus with 6 samples.

Results

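The Ptp4a phosphatases and the Cnnm proteins that bind them are encoded by 7 genes, Ptp4a1, Ptp4a2, Ptp4a3, Cnnm1, Cnnm2, Cnnm3 and Cnnm4. The 7 were taken by gene symbol from a table of 32883 gene rows, where each has 1 row, and all 7 were among the 17315 genes tested, those whose normalised read counts averaged 1 or more. They were chosen with the difference between the groups in these same libraries already known, so no p-value is given for them, and their values, standard errors, intervals and place among the genes called in the fit over all genes are a description of these libraries only.

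The 6 libraries hold polyA RNA of hippocampal cells from Wistar rat pups, plated at postnatal day 0, with 3 cultures per group. The cLTP group, at 13 to 15 days in vitro, received a mixture meant to induce chemical long-term potentiation. The mixture held 50 µM forskolin, an activator of adenylyl cyclase, 50 nM rolipram, an inhibitor of cyclic AMP phosphodiesterases, and 200 µM picrotoxin, a blocker of GABA-A receptors. The DMSO group received the same amount of the solvent at the same age in vitro. No genotype or allele is named for either group, and no source used here gives the time from treatment to harvest.

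Ptp4a proteins, also called phosphatases of regenerating liver (PRL), are small phosphatases of the protein tyrosine phosphatase superfamily that carry a prenyl group and sit at membranes. Cnnm proteins span the membrane and take part in moving magnesium across it. A Ptp4a protein binds the CBS domains of a Cnnm protein, and binding changes magnesium handling by the cell. Ptp4a1 was first described as an early-response gene of regenerating rat liver. Magnesium ions block NMDA receptors of neurons and serve as a cofactor of ATP.

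The sequences shown are the 250 bases before the annotated start of Ptp4a1 and of Cnnm3, the Ptp4a and the Cnnm gene with the largest differences between the groups. They are printed to show where motifs of factors that act after neuronal activity or a rise of cyclic AMP have a match. They are from RefSeq on the rat build GRCr8, not the build rn6 named for the expression table. Capitals mark every match to one of 6 searched motifs on either strand.
Ptp4a1, chr9:40718177-40718426, minus strand: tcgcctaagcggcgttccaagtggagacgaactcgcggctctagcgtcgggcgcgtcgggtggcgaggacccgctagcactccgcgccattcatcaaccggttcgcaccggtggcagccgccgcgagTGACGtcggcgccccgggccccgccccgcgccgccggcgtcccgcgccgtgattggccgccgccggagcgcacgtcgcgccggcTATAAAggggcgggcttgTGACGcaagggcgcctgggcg
Cnnm3, chr9:46251015-46251264, plus strand: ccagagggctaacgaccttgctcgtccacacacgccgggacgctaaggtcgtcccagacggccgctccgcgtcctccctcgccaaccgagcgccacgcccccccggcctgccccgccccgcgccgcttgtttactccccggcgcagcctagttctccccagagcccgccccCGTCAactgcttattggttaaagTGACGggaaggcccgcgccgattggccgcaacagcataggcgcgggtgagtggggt

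The motifs were the cyclic AMP response element (CRE) TGACGTCA, its core TGACG (reverse complement CGTCA), which is part of the full CRE, the AP-1 site TGANTCA, the EGR site GCGNGGGCG, the serum response element (CArG box) and the TATA box TATAAA. The Ptp4a1 window held the core at 123 to 119 and at 21 to 17 bases before the start and TATAAA at 39 to 34 bases before it. The Cnnm3 window held the core at 79 to 75 and at 56 to 52 bases before the start. Among 33469 RefSeq promoter windows of the same length, 18.2% held at least 1 core, 3.98% held 2 or more, and 12.9% held TATAAA. The core contains a CG, and the GC content was 74.8% in the Ptp4a1 window and 69.6% in that of Cnnm3, against a median of 51.2% over all windows. The windows of Ptp4a2, Cnnm1 and Cnnm2 held none of the 6 motifs, and the Ptp4a2 window lies inside the span annotated for that gene. The full CRE was in 1.59% of all windows, the AP-1 letters in 6.34%, the EGR letters in 4.29% and the CArG box in 1.5%, and none of the 5 member windows held them. Promoters of Ptp4a3 and Cnnm4 were not analysed here.

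The 6 libraries held 10668973 to 12776185 gene-assigned reads. As a check of the labels, 6 activity-regulated genes (Fos, Junb, Egr1, Nr4a1, Npas4 and Arc) were each higher in every cLTP library than in any DMSO library. All 6 were past the threshold without a block and 4 with the culture number as a block. With the block Arc and Npas4 did not pass (limma adjusted p = 0.0690 and 0.0737). Markers of neurons and astrocytes were present in every library: the summed level of 8 neuronal markers was 50874 to 61443 in DMSO and 51565 to 65070 in cLTP libraries, and that of 6 astrocyte markers 110383 to 172806 and 126714 to 178230. Of these, the astrocyte regulator Sox9 was the 1 marker past the threshold without a block, and it fell (limma adjusted p = 0.0299, log2 difference -0.72, lower in 3 of 3 cLTP libraries), and it did not pass with the culture number as a block (limma adjusted p = 0.125). With that block Gad1, Gad2 and Snap25 of the neuronal and Slc1a3 of the astrocyte markers were higher (limma adjusted p = 7.09e-05, 0.0110, 0.0248 and 0.00116) and the astrocyte marker Aldh1l1 was lower (0.0225). Microglial markers set culture 3 apart in both groups, with a summed level of 236 in DMSO 3 and 239 in cLTP 3 and 2.25 to 17.1 in the other 4 libraries, where Aif1 and Cx3cr1 were at 0. Culture 3 also had the lowest astrocyte sum of each group (110383 in DMSO 3 and 126714 in cLTP 3). Its neuronal sum was the highest of each group (61443 and 65070), and its oligodendrocyte lineage sum the lowest (2447 and 2799). The summed level of 6 mural and fibroblast markers was 1237 to 1315 in DMSO and 985 to 1107 in cLTP libraries. Of these Pdgfrb fell (267 to 376 in DMSO and 66.1 to 113 in cLTP libraries, limma adjusted p = 0.00106), and the other 5 did not pass, with log2 differences from -0.67 (Rgs5) to 0.19 (Dcn). In mixed cultures, fewer cells of a type and less RNA per cell cannot be told apart, and the part of cell mixture in the values below was not tested.

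Ptp4a1 (ENSRNOG00000011771) was the member that differed most. Its normalised read count was 1296, 1219 and 1183 for DMSO 1, 2 and 3, and 8511, 10478 and 7811 for cLTP 1, 2 and 3. Every cLTP library was far above every DMSO library, and the DMSO libraries were close to each other. The group means were 1232 ± 57.8 and 8933 ± 1383 (SD, n = 3 each), a log2 difference of 2.85 (SE 0.11, 95% interval from 2.60 to 3.10) or 7.19-fold on the log2(value + 1) scale. Of all tested genes, 99.6% had a smaller signed log2 difference. The SD was 4.69% of the mean in DMSO and 15.5% in cLTP libraries, where counting error alone would give 2.76% and 1.09%. Without culture 3 of both groups the log2 difference was 2.91.

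**Figure D1:**
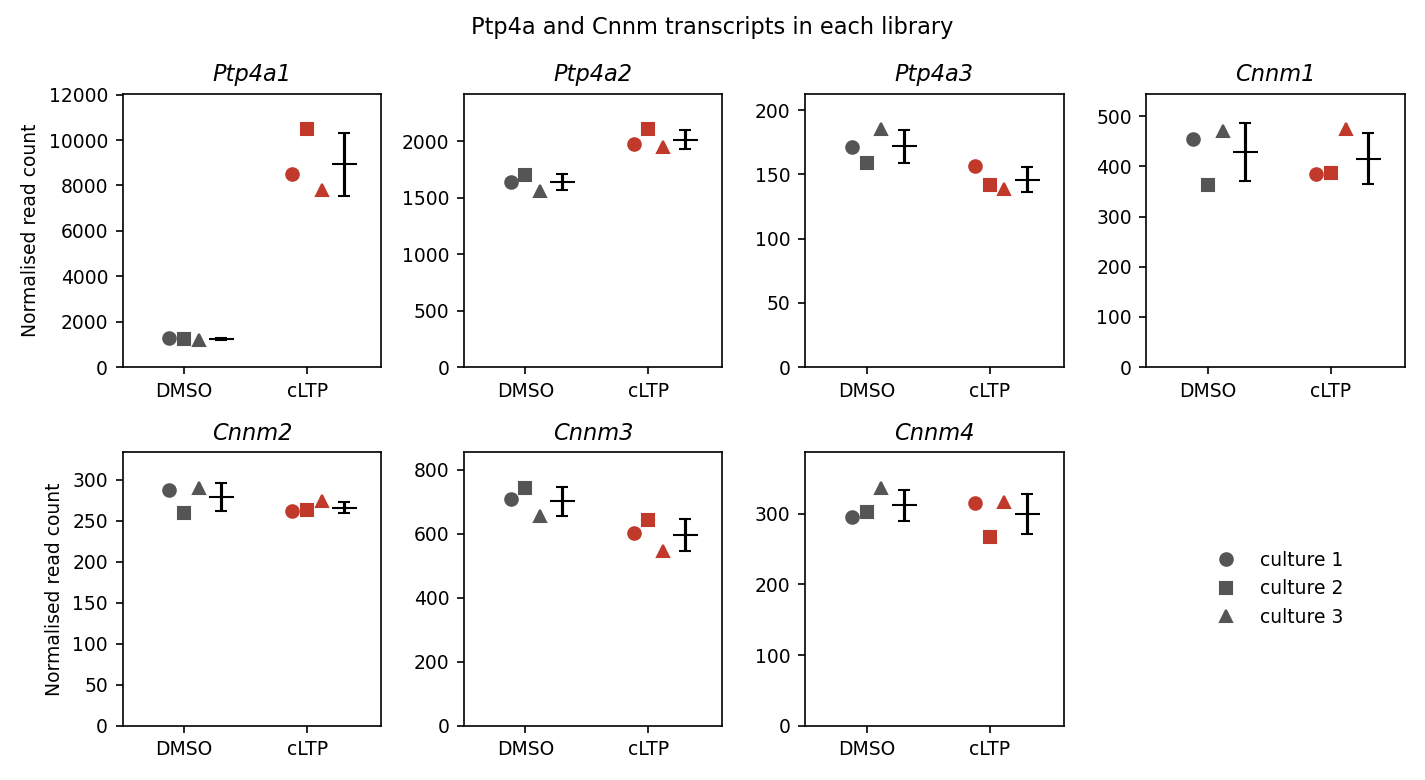
Normalised read count (vertical axis, starting at 0, with a scale of its own for each gene) of the 7 members in each DMSO (grey) and cLTP (red) library. Symbols give the culture number, and bars beside the points give the mean ± SD of 3 libraries. The cLTP points of Ptp4a1 lie between 7811 and 10478 and the DMSO points between 1183 and 1296.

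Ptp4a2 (ENSRNOG00000050044), the closest relative of Ptp4a1 and broadly expressed in mammalian tissues, differed in the same direction and by much less. Its DMSO libraries 1, 2 and 3 had 1644, 1704 and 1563, and its cLTP libraries 1981, 2108 and 1949. The lowest cLTP library was above the highest DMSO library. The means were 1637 ± 70.9 and 2013 ± 84.1 (SD, n = 3 each), with a log2 difference of 0.30 (SE 0.07, 95% interval from 0.13 to 0.46).

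Ptp4a3 (ENSRNOG00000007628), the family member best known from metastatic tumours and from blood vessels, lay the other way. The DMSO libraries 1, 2 and 3 had 171, 159 and 185, and the cLTP libraries had 157, 142 and 138. The groups did not overlap, but cLTP 1 was close below DMSO 2. The means were 172 ± 13.1 and 146 ± 9.71, and the log2 difference was -0.24 (SE 0.11) with a 95% interval from -0.49 to 0.02. This gene had 136 to 188 reads per library, and its spread within groups (7.64% and 6.66%) was about that of counting error (7.39% and 8.53%).

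Among the Cnnm genes, Cnnm3 (ENSRNOG00000016032), whose protein is a Ptp4a partner in human cells, differed most. Normalised counts were 707, 744 and 654 for DMSO 1, 2 and 3 and 602, 643 and 544 for cLTP 1, 2 and 3. All cLTP libraries lay below all DMSO libraries, with cLTP 2 close below DMSO 3. The means were 701 ± 45.1 and 596 ± 49.4, and the log2 difference was -0.24 (SE 0.09, 95% interval from -0.44 to -0.03).

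The other Cnnm genes overlapped between the groups. Cnnm1 (ENSRNOG00000016302), the family member known mainly from the brain, had 454, 363 and 469.7 for DMSO 1, 2 and 3 and 386, 387 and 474 for cLTP 1, 2 and 3, with a log2 difference of -0.04 (95% interval from -0.33 to 0.24). Culture 3 was its highest library in both groups. Cnnm2 (ENSRNOG00000020113), which is mutated in human inherited magnesium wasting, had 287, 259 and 290.5 for DMSO and 262, 263 and 274 for cLTP 1, 2 and 3, with a log2 difference of -0.07 (95% interval from -0.27 to 0.14). Cnnm4 (ENSRNOG00000015886), which exports magnesium from intestinal cells and is mutated in human Jalili syndrome, had 296, 303 and 337 for DMSO and 316, 266 and 316 for cLTP 1, 2 and 3, with a log2 difference of -0.06 (95% interval from -0.30 to 0.18). In the GRCr8 annotation Cnnm4 and Cnnm3 are direct neighbours on chromosome 9, which also carries Ptp4a1.

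For members with separated groups, any pairing of libraries gives differences of 1 sign. Same-numbered libraries of the 2 groups add only how far the differences spread. For Ptp4a1 the log2 difference was 2.71, 3.10 and 2.72 within cultures 1, 2 and 3, and for Ptp4a2 it was 0.27, 0.31 and 0.32. For Cnnm3 it was -0.23, -0.21 and -0.26, the narrowest relative to its size among the members with lower cLTP values. Ptp4a3 ranged from -0.13 in culture 1 to -0.42 in culture 3. Cnnm1, Cnnm2 and Cnnm4 each had cultures on both sides of 0.

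**Figure D2:**
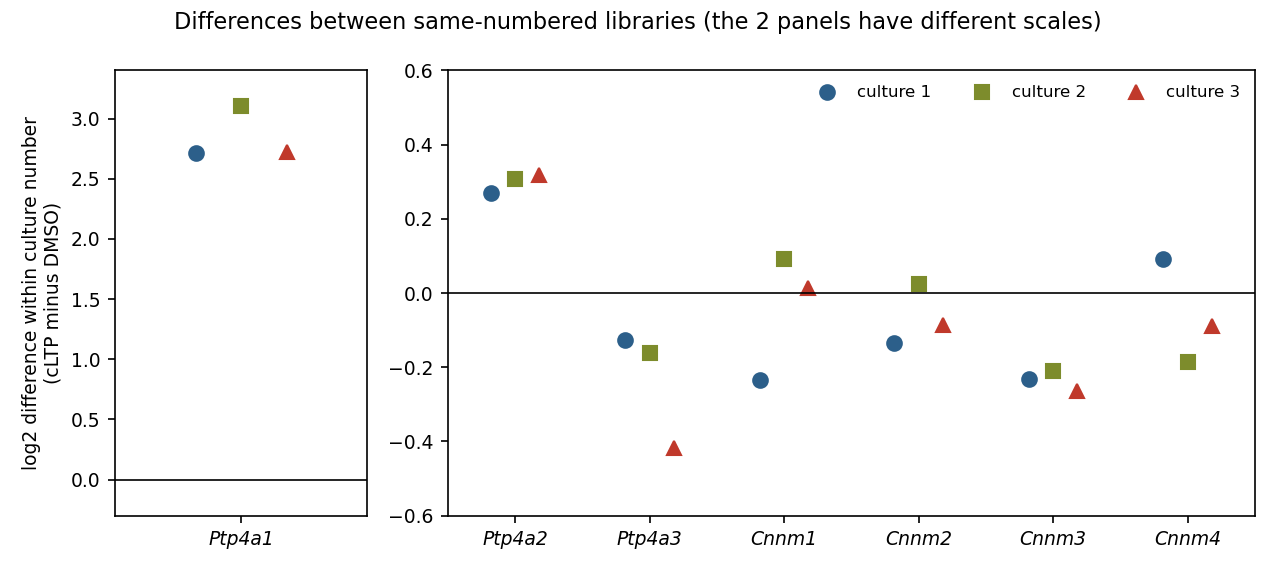
Log2 difference (cLTP minus DMSO, log2(value + 1), vertical axis) between same-numbered libraries for each member, with 1 symbol per culture number. The left panel shows Ptp4a1 between 2.71 and 3.10, and the right panel, with another scale, shows the other 6 members between -0.42 and 0.32.

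In the fit over all 17315 genes, 988 (5.71%) were higher and 573 (3.31%) lower after cLTP at a limma adjusted p under 0.05, together 9.02%. With all libraries scaled to equal totals 823 were higher and 1323 lower. Of the 7 members 2, Ptp4a1 and Ptp4a2, were among the higher genes and 0 among the lower ones. With the culture number as a block, where 12.9% of genes were higher and 10.7% lower, Cnnm3 was also among the lower genes. Without 1 of the 6 libraries, whichever it was, Ptp4a2 was not among the higher genes, while Ptp4a1 was among them each time. Ptp4a2 was also not among them with equal totals or after quantile normalization, and with equal totals Cnnm3 was among the lower genes. In the other 9 of 17 alternatives Ptp4a2 was among the higher genes, including the block, edgeR, DESeq2 and the fit without culture 3 of both groups. By overlap alone, 15% of genes had all cLTP libraries above all DMSO libraries and 13.3% all below; of the members these were 2 (Ptp4a1 and Ptp4a2) and 2 (Ptp4a3 and Cnnm3). As the members were chosen on this contrast, their calls are not tests of them. Nothing is read from these calls, from their changes between settings or from these shares.

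The directions of Ptp4a1, Ptp4a2, Ptp4a3 and Cnnm3 were the same under all 3 scalings tried. Scaling to equal totals changed the log2 differences of single genes by a median of -0.12. It gave 2.73 for Ptp4a1, 0.18 for Ptp4a2, -0.35 for Ptp4a3 and -0.35 for Cnnm3. The change in these 4 differences is that common shift, so it shows nothing particular to these genes.

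Loci named as copies of Ptp4a1 and Ptp4a2 bear on what their rows hold, although sequence identity was not computed. The GRCr8 annotation names 7 further loci after Ptp4a1, of which 6 are pseudogenes and 1 is protein-coding, and 1 protein-coding locus after Ptp4a2. None of these names has a row in the table, and no source used here says how reads shared with such copies were counted. The Ptp4a1 and Ptp4a2 values are uncertain as far as such copies share reads. In the same annotation Ptp4a3 overlaps another locus, LOC120094044. The strand setting is not known, so the Ptp4a3 values are uncertain as far as this locus shares reads.

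Other genes of magnesium transport were compared to see whether the members' surroundings moved with them. Of 19 such genes, all tested, 0 rose and 1 fell, which is 5.26% of the list against 9.02% of all genes, and the median log2 difference was 0.05 against 0.00 over all genes. The gene that fell was Tmem94, an ATPase-like protein linked to magnesium storage in the endoplasmic reticulum. Its values were 912, 858 and 948 for DMSO and 708, 681 and 755 for cLTP 1, 2 and 3, lower in 3 of 3 libraries (log2 difference -0.34, 95% interval from -0.52 to -0.16, limma adjusted p = 0.0270). Its call was lost without any 1 of DMSO 1, DMSO 2, DMSO 3, cLTP 1 or cLTP 2, with limma adjusted p up to 0.111 over all alternatives.

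The other 18 magnesium genes did not pass. Trpm7, a channel with a kinase domain that associates with Cnnm proteins in human cells, was at 837 to 876 in DMSO and 772 to 1166 in cLTP libraries (log2 difference 0.13, 95% interval from -0.18 to 0.43). Arl15, a small GTPase that binds Cnnm proteins, was at 82.8 to 117 and 78.8 to 109.9 (log2 difference -0.03, 95% interval from -0.43 to 0.38). Slc41a1, a sodium-magnesium exchanger, was at 1616 to 2191 and 1572 to 1817, and Magt1, a subunit of the oligosaccharyltransferase linked to magnesium uptake, at 733 to 1279 and 1022 to 1499. With the culture number as a block 1 gene of the list, Magt1, was higher (limma adjusted p = 0.0344) and 2 were lower, Tmem94 (0.000211) and Slc41a1 (0.0142). Mrs2, the magnesium channel of mitochondria, was at 327 to 443 and 318 to 328 (limma adjusted p = 0.42). Trpm6, the channel related to Trpm7, had few reads, with 2.95 to 6.15 in DMSO and 7.12 to 19.7 in cLTP libraries. It was higher in 3 of 3 cLTP libraries without overlap (log2 difference 0.99, 95% interval from -0.04 to 2.02) and did not pass (limma adjusted p = 0.256, or 0.0720 with the block). Cldn19, a kidney tight junction gene, was also low and without overlap, at 5.91 to 12.3 and 12.4 to 16.6 (log2 difference 0.61, limma adjusted p = 0.351). For Nipal1, Nipal4 and Cldn16, which lay around the level of 3 reads or below, a difference was not detectable at this depth. The log2 differences of Slc41a2, Slc41a3, Tusc3, Nipa1, Nipa2, Nipal2, Nipal3 and Mmgt1 lay between -0.07 (Slc41a2) and 0.13 (Nipal2).

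**Figure D3:**
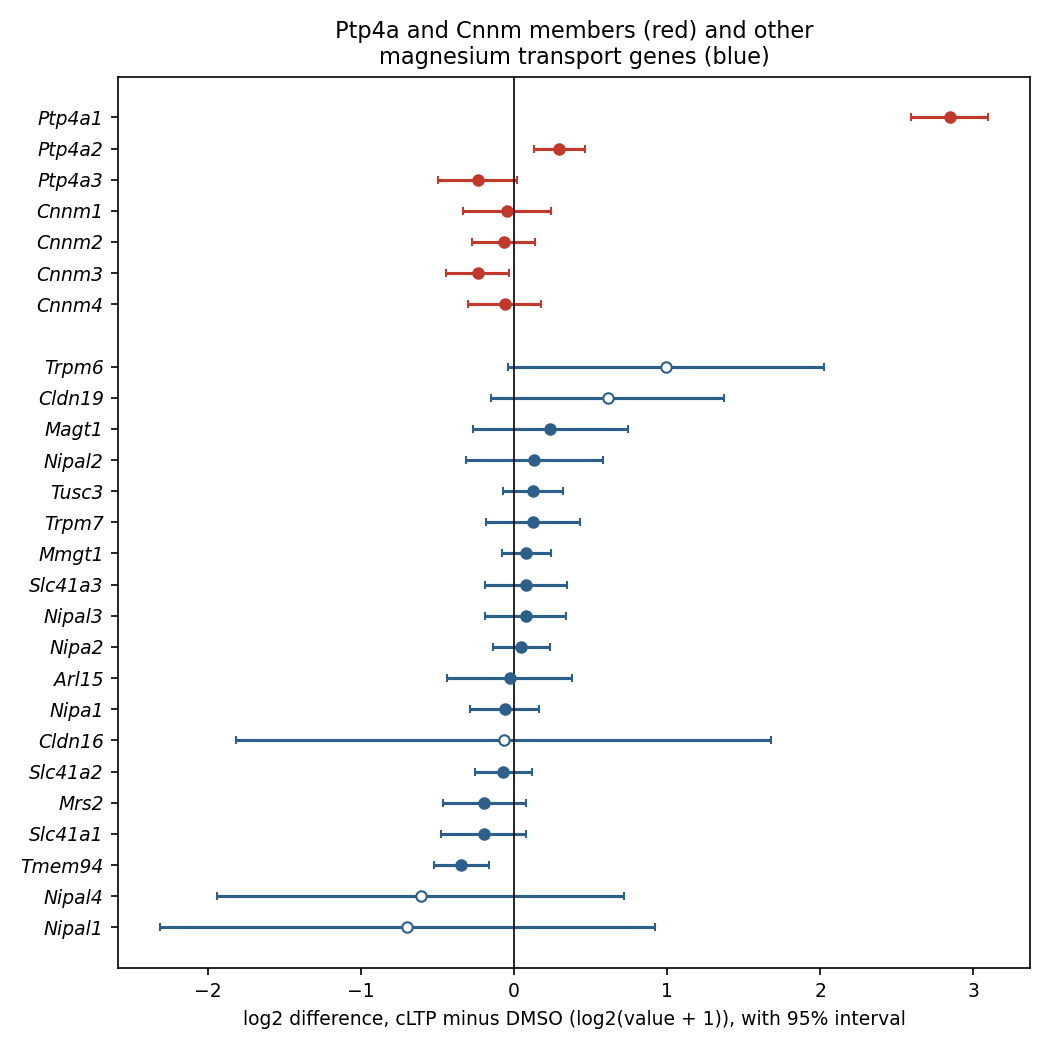
Log2 difference between cLTP and DMSO libraries (horizontal axis, log2(value + 1)) with 95% intervals from the fit over all genes, for the 7 members (red) and the 19 other magnesium transport genes (blue). Open points mark genes with a group mean under 30 normalised reads. Ptp4a1, at 2.85, stands to the right of every other gene shown, and the intervals of the low genes are wide.

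Relatives of the Ptp4a proteins in the cysteine-based phosphatase superfamily gave a second point of reference. The list leaves out the typical MAP kinase phosphatases of the DUSP family and keeps other DUSP genes, Dusp14 and Dusp12 among them. Of 61 such genes 59 had a symbol row that could be tested, 2 rose and 2 fell (6.78% against 9.02% of all genes), and their median log2 difference was -0.03. Dusp14, an atypical dual-specificity phosphatase, rose from between 107 and 148 to between 355 and 454 (log2 difference 1.63, higher in 3 of 3 libraries, limma adjusted p = 0.00015). Ptprn, a receptor-type member of secretory granules without phosphatase activity, rose from between 12152 and 13046 to between 19808 and 21379 (log2 difference 0.70, higher in 3 of 3, limma adjusted p = 0.00106). Ptprj, a receptor-type phosphatase, and Dusp12 fell, with log2 differences of -0.39 (limma adjusted p = 0.0262) and -0.48 (0.0324), lower in 3 of 3 libraries each; both calls were lost without DMSO 1, DMSO 2, DMSO 3, cLTP 1 or cLTP 2, and that of Dusp12 also without cLTP 3 and in DESeq2. Ptpn5, the striatum-enriched phosphatase of neurons, was at 1789 to 2297 in DMSO and 1713 to 2246 in cLTP libraries (log2 difference -0.03, 95% interval from -0.33 to 0.27). Ptpn1 and Ptpn11 had log2 differences of 0.14 and 0.08 and did not pass. With the block 3 of the list were higher and 7 lower, beside 12.9% and 10.7% (together 23.5%) of all genes.

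Genes whose proteins, like the Cnnm proteins, hold CBS domains were the third list. Of 15, 3 rose and 0 fell (20% against 9.02% of all genes), with a median log2 difference of 0.09. Cbs, the cystathionine beta-synthase after which the domain is named, rose from between 166 and 203 to between 606 and 678 (log2 difference 1.78, limma adjusted p = 1.12e-05). Impdh2, an enzyme of guanine nucleotide synthesis, rose from between 824 and 931 to between 1907 and 2011 (log2 difference 1.16, limma adjusted p = 2.32e-05). Clcn5, a chloride-proton exchanger of endosomes, rose from between 108 and 124 to between 213 and 297 (log2 difference 1.11, limma adjusted p = 0.0012). These 3 were higher in 3 of 3 cLTP libraries and passed in all 17 alternatives, and with the block, where 23.5% of all genes passed, 4 genes of the list were higher and 1 lower.

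The genes whose profiles over the 6 libraries lay nearest to that of Ptp4a1 were Itpkc, Rasl11b, Spag4, Emd and Fosl2. Likeness was the Euclidean distance between log2(value + 1) profiles centred on each gene's mean, among 8185 genes with a mean of at least the median of tested genes (195) and an established symbol. Itpkc, a kinase of inositol trisphosphate, was nearest, at a distance of 0.209 log2 units. Its values were 276, 242 and 215 for DMSO and 1656, 1902 and 1601 for cLTP 1, 2 and 3, so cLTP 2 was the highest library for both genes. Rasl11b, a small GTPase of the Ras family, followed at 0.235 and Spag4, a SUN-domain protein, at 0.277. Emd, the inner nuclear membrane protein emerin, was at 0.360 and Fosl2, an AP-1 subunit, at 0.384. The folds of these 5 genes were 6.56 (Spag4) to 7.90 (Fosl2), beside 7.19 for Ptp4a1. These genes were picked for the likeness of their profiles over the same libraries. The similar folds follow from that choice, as does the likeness to Itpkc across libraries.

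The genes nearest to Cnnm3 were Znf740 (distance 0.0359), Cdh10, Xpo5, Tbl1xr1 and Ythdf2 (0.0728). As in Cnnm3, DMSO 2 was their highest library and cLTP 3 their lowest. None of the 5 was past the threshold without a block, with log2 differences of -0.25 to -0.22, and all 5 passed with the culture number as a block. As these genes were picked for the likeness of their profiles, the shared order and direction follow from the choice.

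**Figure D4:**
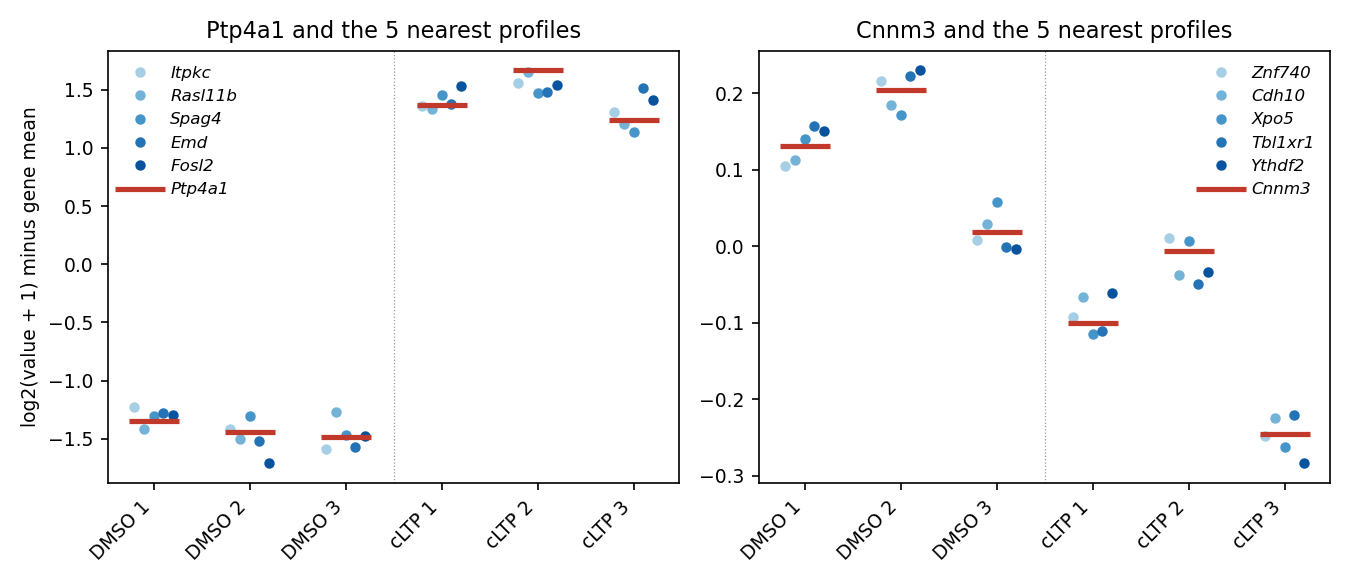
Profiles of Ptp4a1 (left, red bars) and Cnnm3 (right, red bars) with the 5 nearest genes each (blue points), as log2(value + 1) minus the gene's mean over the 6 libraries named on the horizontal axis. The vertical scales differ. For Ptp4a1 all DMSO libraries lie below and all cLTP libraries above 0, and for Cnnm3 DMSO 2 is the highest and cLTP 3 the lowest library.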

How the data were processed

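The deposited signal values, 1 for each gene in each library, were not divided by gene length. The submitters' processing notes name bcl2fastq, STAR, DESeq2 and build rn6; no source used here gives versions, counting tool, strand setting or annotation. Each deposited signal above 0 (100% per library, tolerance 0.01) equals a whole number times the column's smallest value, 0.878 to 1.13, as counts scaled by a library's size factor would, and dividing by it recovered whole reads. The label text that names sorted cells of operated animals does not match the cultures named elsewhere and was not used. The cultures are labelled as biological replicates, with no litter or day named, and p-values reflect only how far these cultures differ.

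Log2(value + 1) was fitted with limma 3.58.1 (trend and robust, R 4.3.3) for genes with a mean of at least 1, two-sided, with Benjamini-Hochberg adjustment over all genes and a threshold of 0.05. edgeR 4.0.16 and DESeq2 1.42.0 on the recovered reads were alternatives and called 1623 and 1642 genes. Same-numbered libraries correlated after removal of group means (0.398, 0.548 and 0.743 over genes with a mean of at least 10), each above 0.1. DMSO 1 with cLTP 2 (0.319) and DMSO 2 with cLTP 1 (0.235) were also above 0.1. DMSO 3 was negative with cLTP 1 and cLTP 2 (-0.426 and -0.59). The check thus pairs the libraries of culture 3 and does not settle the pairing of cultures 1 and 2. The labels do not state a pairing. The main fit had been set without a block and was kept so; values with the culture number as a block are given where they change a call.

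Members, lists and tests were chosen with earlier results of these data known. Named genes were all members and magnesium genes, from the other lists up to 4 higher and 4 lower genes past the threshold plus Ptpn5, Ptpn1 and Ptpn11 (1 further gene of this rule is not reported here), and the 5 nearest profiles of the Ptp4a and Cnnm genes that differed most. The lists hold 19 magnesium transport, 61 phosphatase and 15 CBS domain genes; 2 phosphatases at 0 in all libraries were not tested. Intervals cover the spread between libraries.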

Additional observations from a re-analysis of the deposited data

How the results depend on the processing

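Each of 17 alternatives kept the direction of Ptp4a1 (log2 difference 2.67 to 2.94), Ptp4a2 (0.18 to 0.33), Ptp4a3 (-0.35 to -0.14), Cnnm2 (-0.18 to -0.04) and Cnnm3 (-0.35 to -0.17), whereas Cnnm1 (-0.16 to 0.03) and Cnnm4 (-0.18 to 0.02) crossed 0 in 4 and 1 of them. For Ptp4a1, Ptp4a2, Ptp4a3 and Cnnm3, whose groups did not overlap, leaving out libraries could not reverse the direction. The filter and block settings leave every log2 difference unchanged, so many of the 17 could not have changed a direction. With the replicate block 4075 genes passed (2225 higher, 1850 lower), and 3 magnesium transport, 10 phosphatase and 5 CBS domain genes. The block changed the calls of Cnnm3, its 5 nearest genes, Magt1, Slc41a1, Arc, Npas4, Sox9 and the 5 neuronal and astrocyte markers named above. It changed no other call given above for a named gene. Equal totals gave 1323 lower genes. Without culture 3 of both groups 1721 genes passed, 2 of them magnesium transport genes, Tmem94 and Slc41a1. Leaving out 1 library gave 953 to 1408 genes past the threshold (227 to 469 lower), 0 to 1 magnesium transport genes and 2 to 3 phosphatase genes, and the cause was not tested. Cldn16, Nipal1, Nipal4 and Trpm6 had no value under some alternatives, as they fell below the filter or had no adjusted p. Genes near 3 reads (2.63 to 3.38 normalised) were measured with low precision.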
